A study of Caenorhabditis elegans with 357 samples.

Results

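The genes described here are the abu, pqn and fipr families of the nematode Caenorhabditis elegans, taken as every gene whose symbol is abu, pqn or fipr followed by a number and that was listed for both strains studied. They were 103 of 19364 genes, made up of 14 abu, 60 pqn and 29 fipr genes. The data are polyA RNA profiles of whole single animals in the fourth larval stage (L4), 1 library per animal, each labelled with the minutes it had spent in L4. Of 357 animals, 164 were of the mutant strain MT15434, genotype tph-1(mg280) II, called tph-1 below, and the others were of N2, the wild-type laboratory strain. Animals of both strains came from bleached eggs, were kept singly in imaging arenas on agar with OP50 bacteria killed by ultraviolet light, and were cut and frozen after the behavioural recording. The gene tph-1 encodes the tryptophan hydroxylase of serotonin synthesis, and the mutants carry 1 allele in 1 strain with no rescued line beside it.

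The pharynx of the worm is a muscular feeding organ whose inner surface is covered by a flexible cuticle that contains chitin and is rebuilt at each moult. Many abu and pqn genes encode secreted proteins with low-complexity stretches rich in glutamine and asparagine that have been described as parts of this lining, and fipr genes encode small secreted peptides. The abu genes were named for their activation when the unfolded protein response is blocked, pqn stands for prion-like glutamine- and asparagine-rich domains, and fipr for relatives of fungus-induced peptides. The pqn name follows sequence composition rather than place of action, so that it also covers proteins with other roles, such as the RNA-binding protein PQN-59. L4 ends with the moult to the adult, at which a new lining replaces the larval one.

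Values are RPM, reads of a gene scaled to a fixed library total, and levels are not comparable between genes of different length unless given per kilobase of exon. The labelled time ran from 9.59 to 596 min in tph-1 animals and from 10.7 to 599 min in N2 animals. In 6 windows of 100 min there were 18, 29, 42, 28, 26 and 21 tph-1 animals and 23, 26, 32, 35, 49 and 28 N2 animals. Libraries held 437993 to 5175666 reads in tph-1 and 587469 to 11544404 in N2, so that 1 read was worth 0.193 to 2.28 RPM in tph-1 and 0.0866 to 1.70 RPM in N2. The titles number the animals in 4 sets of tph-1 and 8 sets of N2. The labels do not say what a set is, each set covered its own range of minutes, and the animals of a set share whatever it stands for. In whole animals, fewer cells of a type and less RNA per cell cannot be told apart.

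The pharynx muscle myosin myo-2 ranged over 29.2 to 4789 RPM in tph-1 animals and 11.5 to 6460 RPM in N2 animals, and no animal lacked it. The tph-1 transcript was low, with a median of 1.81 RPM (0 to 19.3) in tph-1 animals and 2.73 RPM (0 to 26.9) in N2 animals. The labels do not say which bases the allele changes, so its level does not check the strain label. In all, 3 of 357 animals were picked out by the late gene abu-11, with bounds in minutes chosen here. Between 50 and 380 min they had at least 100 RPM of abu-11, a level other animals reached only before 50 min or after 380 min. They were a tph-1 animal at 241 min with 3544 RPM of abu-14, an N2 animal at 51.8 min with 1115 RPM, and an N2 animal at 369 min with 26853 RPM. The animal at 51.8 min lies just inside the bounds and had 476 RPM of abu-8, a gene also high in some animals below 50 min, described further on. Leaving out these 3 animals was examined as follows. Leaving them out, an alternative chosen after seeing the data, changed none of the counts below by over 1.5 times. Equal minutes were not equal transcriptional age, the minutes predicted from the other genes by a model trained on N2. The median of age minus minutes was 55.2 min in tph-1 and -8.64 min in N2 over all animals, 108 and 41.5 min below 100 min, and -7.94 and -22.5 min at 500 to 600 min.

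Of the 103 genes, 74 reached at least 5 RPM in at least 10% of all animals and were tested, namely 11 of 14 abu, 47 of 60 pqn and 16 of 29 fipr genes. The other 29 were low throughout L4. Among them were the neighbours pqn-76, abu-5, pqn-78 and pqn-79 on chromosome IV (15579086 to 15596645) and fipr-18, fipr-19 and fipr-20 on chromosome III (7458815 to 7462395), in the WBcel235 annotation. The highest value of pqn-76 in any animal was 1.92 RPM in tph-1 and 0.646 RPM in N2. Of the whole list, 99 symbols were found in that annotation, and 23 genes share exon sequence with another annotated gene. How reads of overlapping genes or near-identical copies were assigned is not given in the sources used here, so single members of close pairs are uncertain.

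Members lie on all chromosomes, and several groups of neighbours are on chromosome V. A group of 6, fipr-5, fipr-9, fipr-4, fipr-7, fipr-6 and fipr-8, sits between 10220981 and 10239961. The neighbours fipr-11 and fipr-10 lie between 9905853 and 9914529, and fipr-1 and fipr-2 between 12361301 and 12365869. The genes abu-15, abu-6 and abu-7 lie between 5158602 and 5164782, with abu-8 a further 28212 bases on. The genes abu-1 and pqn-2 (10380340 to 10384063) are transcribed away from each other with 615 bases between them.

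Time in L4 separated the families. The 3 families together took a median of 0.765%, 0.489%, 0.454%, 0.522%, 0.647% and 0.497% of a tph-1 library in the 6 windows, and 0.602%, 0.422%, 0.405%, 0.544%, 0.632% and 0.794% of an N2 library. The median fipr share at 400 to 500 min was 0.0312% in tph-1 and 0.0377% in N2, against 0.443% in tph-1 and 0.303% in N2 below 100 min, where it was highest. In tph-1 the fipr share at 400 to 500 min was mostly 1 gene, fipr-21, at a median of 291 RPM, against 2.71 RPM for fipr-2. The share there does not follow the early fipr genes. The median abu share at 400 to 500 min was 0.379% in tph-1 and 0.335% in N2, against 0.0118% in tph-1 and 0.00280% in N2 below 100 min. Most of it was 1 gene, abu-14, with medians of 3255 RPM in tph-1 and 2590 RPM in N2 at 400 to 500 min. The next highest in tph-1 was abu-13 at 164 RPM. At 500 to 600 min, where 7 of 11 abu genes peaked, the abu share was 0.181% in tph-1 and 0.310% in N2. The window medians of the pqn share lay between 0.183% and 0.301% in tph-1 and between 0.221% and 0.338% in N2. Single animals ranged from 0.136% to 0.473% in tph-1 and from 0.121% to 1.68% in N2.

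**Figure D1:**
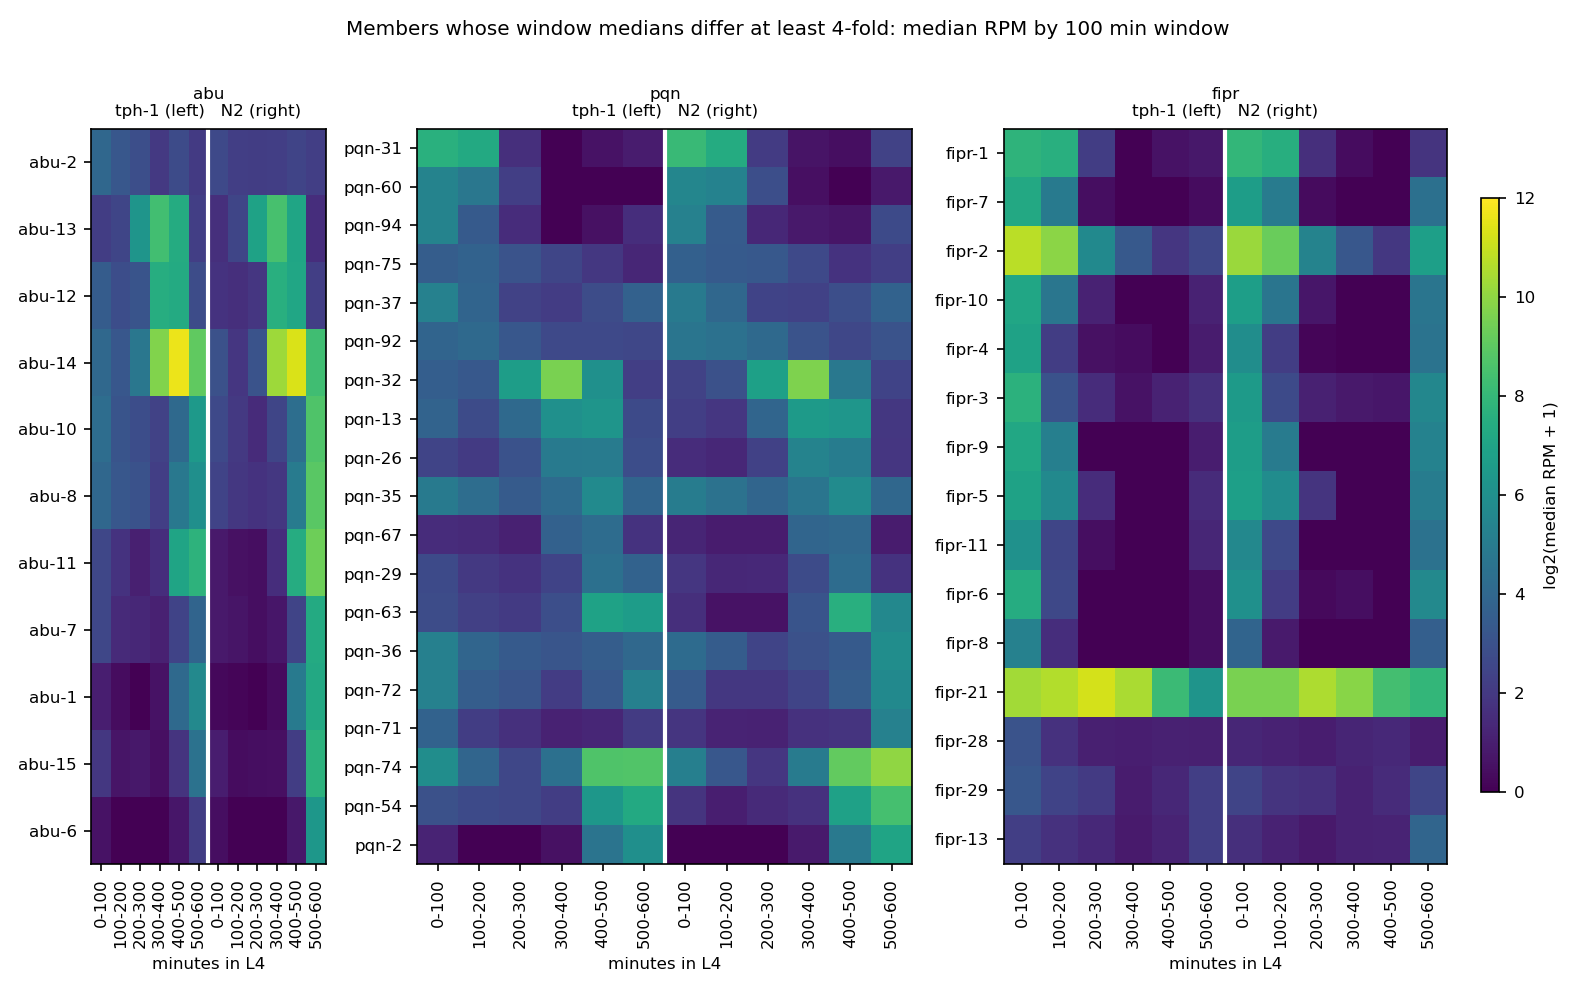
Median RPM in each of 6 windows of 100 min in L4 for the 45 tested members whose window medians differed at least 4-fold in a strain, on a colour scale of log2(median RPM + 1), with tph-1 left of the white line and N2 right of it. High values are bright: most fipr rows are brightest in the first window, most abu rows in the last windows, and the pqn rows hold both kinds.

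The window of the highest median was the same in both strains for 11 of 11 abu, 33 of 47 pqn and 13 of 16 fipr genes. Of the abu genes, 7 peaked at 500 to 600 min in each strain, 1 at 400 to 500 min and 2 at 300 to 400 min. Below 100 min, 14 fipr genes peaked in tph-1 and 11 in N2. The peaks of pqn genes were spread over L4, with 31 of 47 in tph-1 and 25 of 47 in N2 below 100 min. Peak windows of all tested genes were not counted, so these counts have no share of all genes beside them. The median late against early change of all genes was below 0 in both strains, at -0.68 in tph-1 and -0.36 in N2. Of the pqn genes, 28 of 47 varied under 4-fold between window medians in both strains, against 1 fipr gene, and 9 varied over 10-fold in both, against 8 abu and 11 fipr genes.

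With a smooth curve over minutes fitted beside a term for set (limma, Benjamini-Hochberg adjustment over 14293 genes, fitted range of at least 1 log2 unit), 63 of 74 members changed over L4 in tph-1, where 74.9% of all genes tested did. In N2, 61 of 74 did, against 51.1% of all genes. All 11 abu and all 16 fipr genes changed in tph-1, and 10 and 14 in N2. The fitted range had a median of 5.84 log2 units for abu genes in tph-1 and 7.34 in N2, 7.31 and 7.97 for fipr genes, and 1.70 and 1.24 for pqn genes. Over all genes the medians were 1.40 in tph-1 and 1.03 in N2. Among members that did not pass in either strain were pqn-51, pqn-53, pqn-59 and pqn-87.

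The gene fipr-2 was highest at the start of L4. In tph-1 animals its lowest, median and highest values were 197, 1758 and 4801 RPM below 100 min, 229, 959 and 2821 RPM at 100 to 200 min, 7.24, 50.1 and 276 RPM at 200 to 300 min, and 0.862, 2.71 and 11.1 RPM at 400 to 500 min. In N2 animals they were 20.2, 1172 and 4423 RPM below 100 min, 206, 607 and 2988 RPM at 100 to 200 min, 1.92, 39.6 and 676 RPM at 200 to 300 min, and 0, 2.90 and 20.4 RPM at 400 to 500 min. No animal of either strain at 400 to 500 min reached the lowest fipr-2 value of its own strain at 100 to 200 min. The change late against early (from 400 min against below 200 min) was -6.63 ± 0.42 on the log2(RPM + 1) scale in tph-1 and -4.80 ± 0.62 in N2 (SE, limma adjusted p = 3.8e-32 and 1.4e-11). With edgeR on recovered reads the N2 change was -1.57 and did not pass (adjusted p = 0.11). Its neighbour fipr-1 fell in the same way, with -6.16 ± 0.35 in tph-1 and -5.57 ± 0.48 in N2 (log2, SE).

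Within the early fipr genes the levels at 100 to 200 min ranged widely. In the 6-gene group on chromosome V, fipr-6 had a median of 5.09 RPM at 100 to 200 min, against 169 RPM below 100 min, in tph-1, and 3.37 against 63.3 RPM in N2. Its change between these windows was -4.43 ± 0.40 in tph-1 and -3.50 ± 0.40 in N2 (SE, limma adjusted p = 6.6e-18 and 1.2e-12). At its side fipr-5 had 50.01 RPM at 100 to 200 min, against 121.2 RPM below 100 min, in tph-1, and 56.6 against 109.5 RPM in N2, a change of -1.14 ± 0.34 in tph-1 and -0.63 ± 0.38 in N2 (SE), of which the N2 change did not pass (limma adjusted p = 0.013 and 0.50). For fipr-1 and fipr-2 neither strain passed in this step. All 6 genes of the group were below 3 RPM in the median at 200 to 300 min in both strains. Whether the steps of 2 genes differ was not tested.

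At 200 to 300 min, 11 of 16 fipr genes had fallen against 100 to 200 min in tph-1, and 11 of 16 in N2. Not all fipr genes peaked at the start. The low gene fipr-13 had its highest median at 500 to 600 min in both strains, with 3.66 RPM in tph-1 and 14.3 RPM in N2, and in N2 the low genes fipr-25, fipr-28 and fipr-29 also peaked after 100 min, at medians of 1.84, 1.62 and 4.74 RPM. The gene fipr-21 had the highest level of the fipr genes per exon length, at a peak median of 7024 RPM per kb of exon in tph-1 and 4344 in N2. The medians of fipr-21 over the 6 windows were 1292, 1591, 2381, 1435, 291 and 72.8 RPM in tph-1, and 770, 756, 1473, 925, 345 and 244 RPM in N2. It therefore peaked at 200 to 300 min in both strains, where tph-1 animals spanned 959 to 3927 RPM and N2 animals 46.4 to 2981 RPM. The middle of L4 (200 to 400 min) against the mean of both ends was higher by 1.95 ± 0.21 in tph-1 and 1.70 ± 0.25 in N2 (log2, SE, limma adjusted p = 2.4e-15 and 3.4e-09).

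Some pqn genes followed the early fipr pattern. The gene pqn-31 had medians of 192.3, 156.7, 2.05, 0, 0.506 and 0.904 RPM over the 6 windows in tph-1, and 276, 167, 3.29, 0.563, 0.3499 and 4.16 RPM in N2. Between 300 and 500 min no animal of either strain had more than 2.67 RPM. Its late against early change was -5.80 ± 0.34 in tph-1 and -5.59 ± 0.49 in N2 (log2, SE, limma adjusted p = 7.0e-35 and 1.6e-20). The genes pqn-60 and pqn-94 fell too, with changes of -4.17 ± 0.32 and -2.52 ± 0.29 in tph-1, and of -3.40 ± 0.40 and -2.85 ± 0.36 in N2 (log2, SE).

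**Figure D2:**
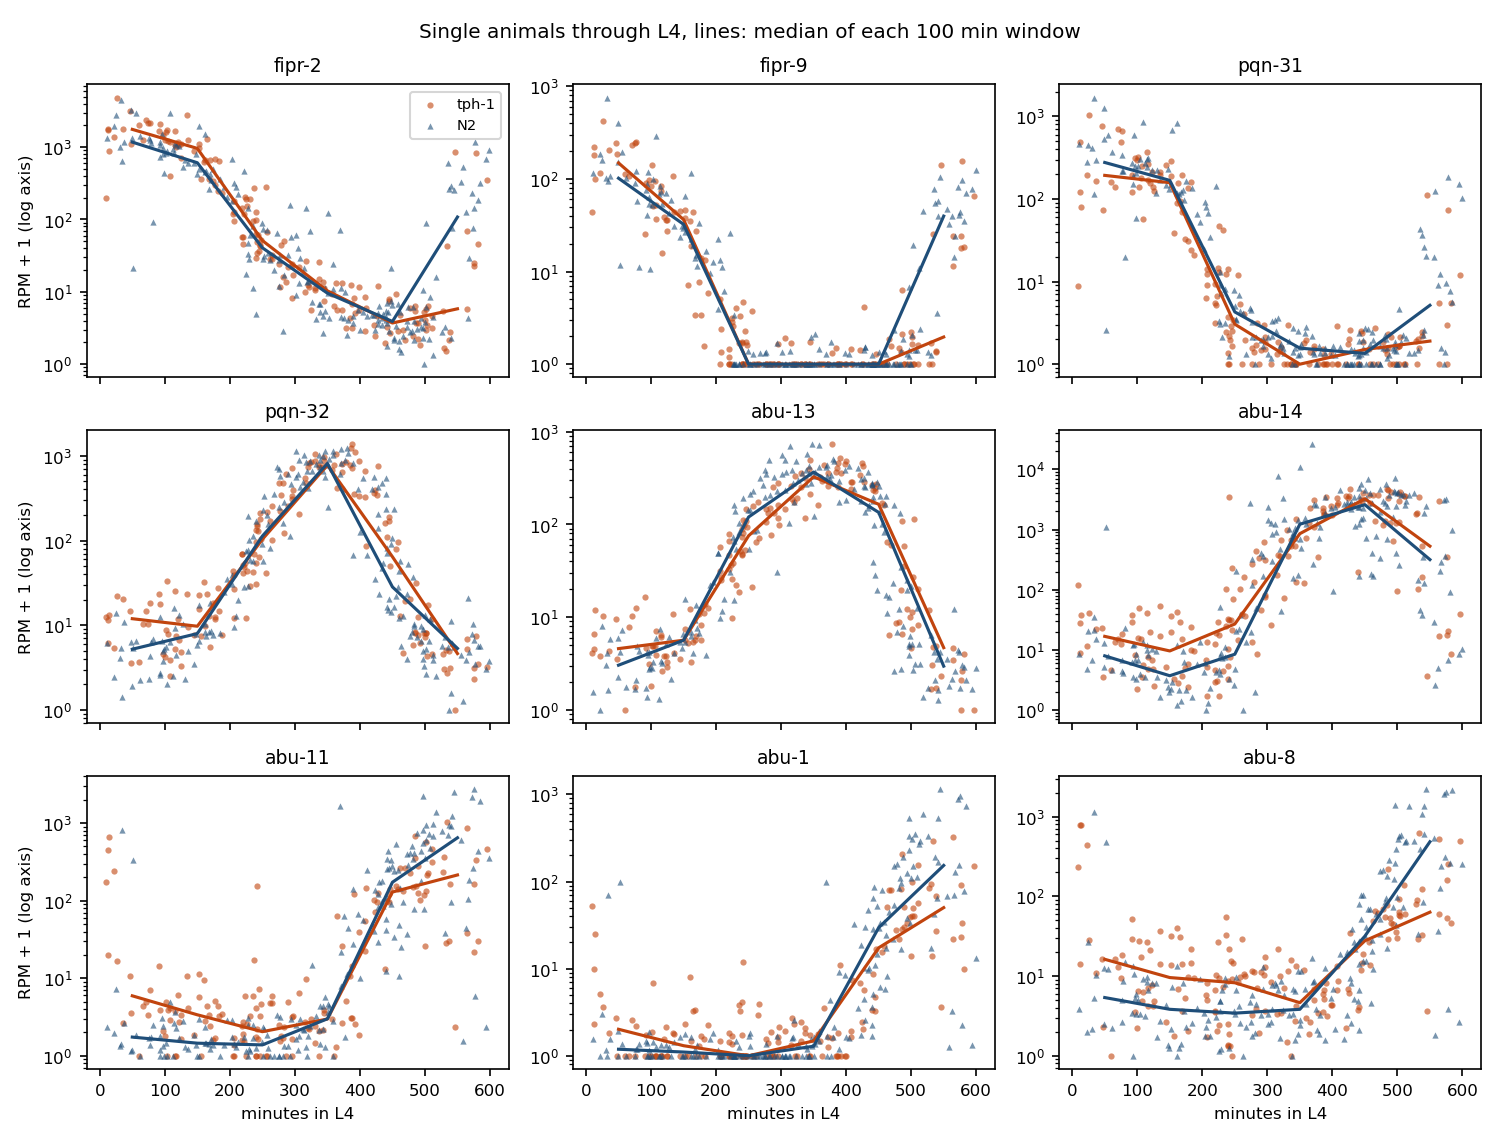
RPM + 1 on a log axis against minutes in L4 for 9 members, each point 1 animal and each line the median in windows of 100 min, with tph-1 and N2 in separate colours. The genes fipr-2, fipr-9 and pqn-31 are high at the start, pqn-32 and abu-13 in the middle, abu-14 after 300 min, and abu-11, abu-1 and abu-8 near the end.

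Besides fipr-21, pqn-32 and abu-13 were among the members called higher in the middle of L4 than at both ends. In tph-1, pqn-32 had lowest, median and highest values of 11.3, 102 and 712 RPM at 200 to 300 min, 205, 776 and 1391 RPM at 300 to 400 min, and 0, 3.63 and 16.5 RPM at 500 to 600 min. In N2 the values were 8.42, 112 and 738 RPM, 66.6, 810 and 1231 RPM, and 0, 4.33 and 20.2 RPM in the same windows. Every animal at 300 to 400 min was above every animal of its strain at 500 to 600 min. The middle was higher than both ends by 3.72 ± 0.31 in tph-1 and 4.51 ± 0.31 in N2 (log2, SE, limma adjusted p = 1.9e-22 and 4.7e-30).

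Like pqn-32, abu-13 had its highest median at 300 to 400 min, with 116, 325 and 736 RPM in tph-1 and 103, 366 and 743 RPM in N2. At 500 to 600 min its median was 3.70 RPM in tph-1 and 1.97 RPM in N2, though 1 tph-1 animal still had 113.4 RPM. The middle was higher than both ends by 3.29 ± 0.30 in tph-1 and 4.05 ± 0.34 in N2 (log2, SE). Across the members, 4 were higher in the middle than at both ends in tph-1 and 27 lower, where 3.04% and 2.55% of all genes tested were. In N2, 6 were higher and 28 lower, against 3.51% and 3.02%. Most of the lower ones were early fipr genes and late abu genes, 11 fipr and 7 abu in each strain. With transcriptional age in place of minutes, an alternative chosen after seeing the data, 15 members were lower in tph-1.

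The abu genes came on in sequence. In bins of 50 min, the first with a median of at least 10 RPM was 200 to 250 min for abu-13 in both strains and 250 to 300 min for abu-12 in both. For abu-11 it was 400 to 450 min in tph-1 and 350 to 400 min in N2, and for abu-1 it was 450 to 500 min in both. For abu-15 and abu-7 it was 500 to 550 min in tph-1 and 450 to 500 min in N2. For abu-6 it was 550 to 600 min in tph-1 and 500 to 550 min in N2. These bins are a description with no test, and low levels near 10 RPM also occurred earlier for some genes, as for abu-8 in tph-1 at 150 to 200 min.

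The steps between neighbouring windows show the same order. At 100 to 200 min against the window before, 20 members fell in tph-1 and 12 in N2, 9 and 8 of them fipr, where 2.04% and 1.18% of all genes tested fell. At 200 to 300 min, 4 rose and 15 fell in tph-1 (4.06% and 2.45% of all genes), and 4 rose and 17 fell in N2 (5.58% and 3.26%). At 300 to 400 min, 8 rose and 5 fell in tph-1 (4.69% and 4.23%), and 12 rose and 6 fell in N2 (7.6% and 2.97%). At 400 to 500 min, 13 rose and 4 fell in tph-1 (4.51% and 3.16%) and as many in N2 (5.17% and 3.33%), with 7 abu genes among the risers of each strain. Without tph-1 set 4, 7 members fell in the first of these steps in tph-1.

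The most abundant abu gene per exon length, abu-14, reached a peak median of 2317 RPM per kb of exon in tph-1 and 1844 in N2. In tph-1 its lowest, median and highest values were 1.39, 8.58 and 51.6 RPM at 100 to 200 min, 24.8, 853 and 3510 RPM at 300 to 400 min, 195, 3255 and 4733 RPM at 400 to 500 min, and 2.64, 528 and 4214 RPM at 500 to 600 min. In N2 they were 0.228, 2.71 and 12.5 RPM, 42.5, 1225 and 26853 RPM, 93.6, 2590 and 7302 RPM, and 1.62, 316 and 4220 RPM in the same windows. All animals at 400 to 500 min were above all animals of their strain at 100 to 200 min, and at 500 to 600 min animals were spread over the whole range. Late against early, abu-14 was higher by 5.59 ± 0.67 in tph-1 and 4.14 ± 0.85 in N2 (log2, SE, limma adjusted p = 1.7e-13 and 1.1e-05). With early below 150 min and late from 450 min, the N2 difference was 0.90 and did not pass (adjusted p = 0.44).

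The gene abu-11 came on after abu-14. In tph-1 it had lowest, median and highest values of 0, 1.98 and 122 RPM at 300 to 400 min, 12.1, 128 and 683 RPM at 400 to 500 min, and 1.32, 214 and 1048 RPM at 500 to 600 min. In N2 it had 0, 2.00 and 1638 RPM, 9.04, 171.9 and 2227 RPM, and 0.540, 646 and 2722 RPM. Its late against early change was 4.92 ± 0.45 in tph-1 and 5.21 ± 0.63 in N2 (log2, SE, limma adjusted p = 8.5e-20 and 5.2e-13). The divergent neighbours abu-1 and pqn-2 were both late: abu-1 rose by 3.89 ± 0.35 in tph-1 and 4.35 ± 0.59 in N2, and pqn-2 by 4.25 ± 0.32 and 4.49 ± 0.57 (SE). Among the other pqn genes, pqn-54 rose by 3.66 ± 0.39 in tph-1 and 4.63 ± 0.60 in N2, pqn-63 by 3.42 ± 0.42 and 3.51 ± 0.63, and pqn-74 by 3.99 ± 0.45 and 2.83 ± 0.63 (SE). With early below 150 min and late from 450 min, pqn-63 no longer passed in N2 (1.26, adjusted p = 0.16).

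**Figure D3:**
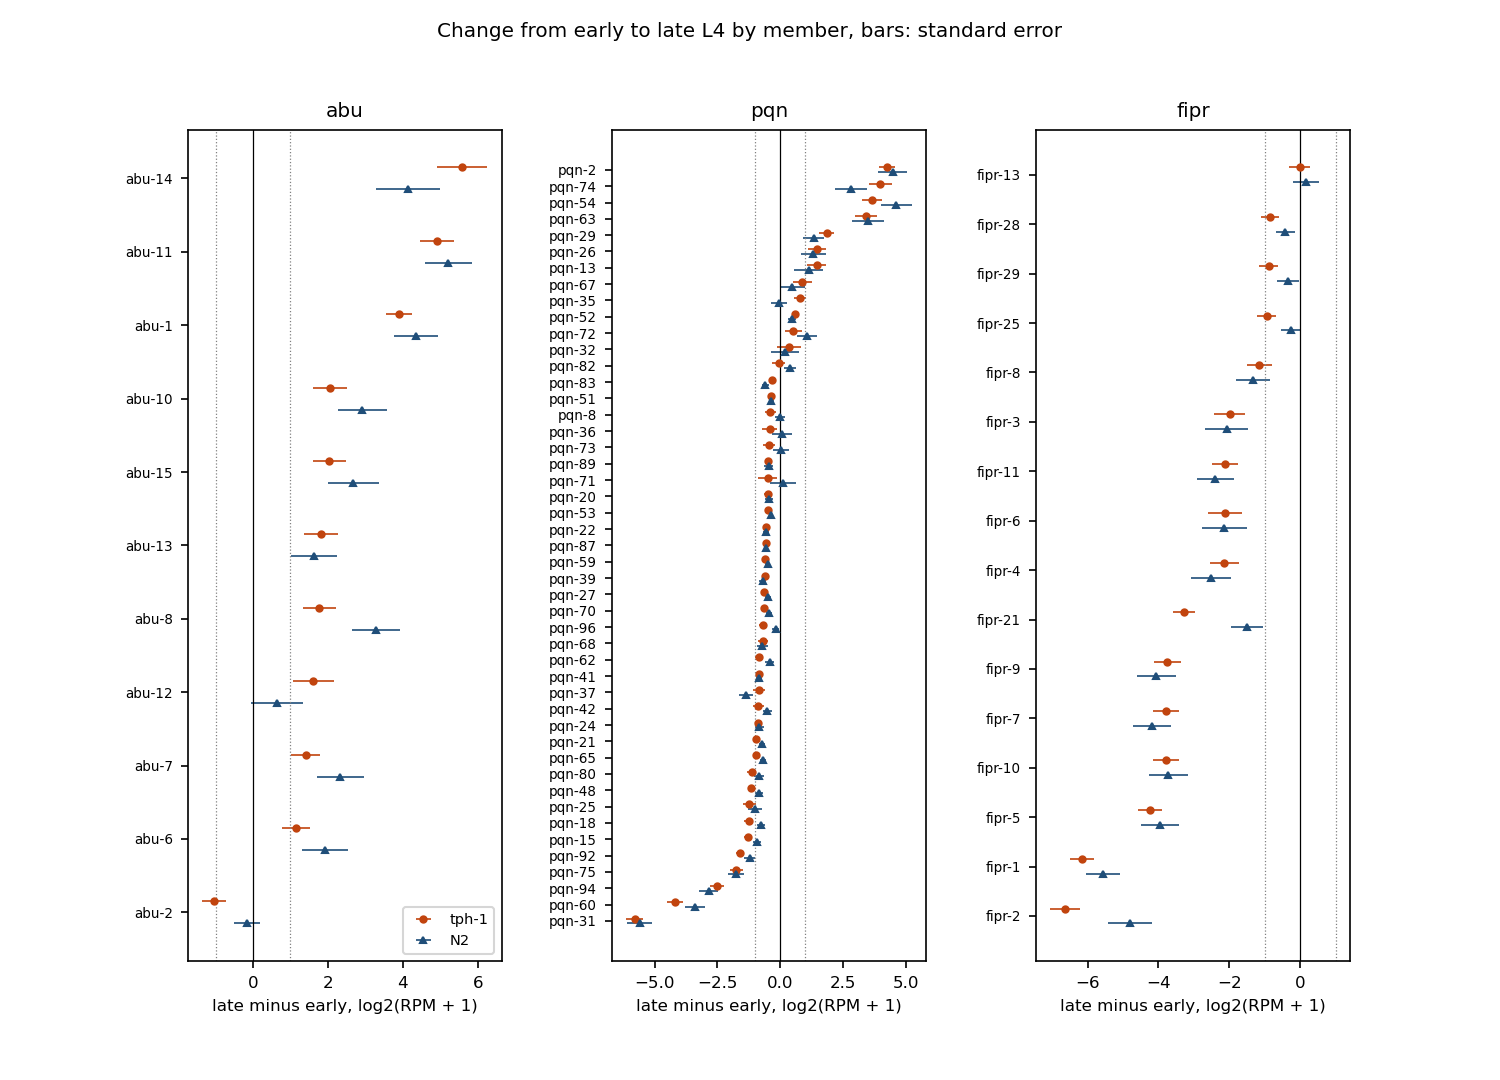
Late minus early change on the log2(RPM + 1) scale with its SE for the 74 tested members in both strains, by family, with dotted lines at the threshold of 1 log2 unit in either direction. The abu genes lie to the right of 0 except abu-2, the fipr genes to the left or near 0, and the pqn genes on both sides.

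Late against early, 10 of 11 abu genes rose in tph-1 and 1, abu-2, fell, and 9 rose in N2, by limma with an adjusted p under 0.05 and a change of at least 1 log2 unit. Of the 47 pqn genes, 7 rose and 10 fell in tph-1, and 7 rose and 7 fell in N2. Of the 16 fipr genes, 12 fell in each strain. Together 17 members rose and 23 fell in tph-1, where 10.1% and 23.6% of all genes tested did, and 16 rose and 19 fell in N2, against 11.4% and 8.19%. In both strains 15 members rose, 9 of them abu and 6 pqn, and 18 fell, 12 of them fipr and 6 pqn, and none moved in opposite directions. The abu-2 change in tph-1, -1.05 ± 0.32 (SE, adjusted p = 0.0021), was lost in 5 of 14 alternatives, among them the fit without tph-1 set 3 (-0.80, adjusted p = 0.058).

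The median late against early change of all genes was -0.68 in tph-1 and -0.36 in N2, and rescaling by TMM factors moved it to -0.16 and -0.11. Relative to the median of all genes, abu genes had a median change of 2.49 in tph-1 and 3.04 in N2, pqn genes 0.12 and -0.10, and fipr genes -1.45 and -1.90. With TMM these were 2.53 and 2.99, 0.15 and -0.05, and -1.60 and -1.82. The split of the pqn genes in tph-1 moved to 11 higher and 5 lower with TMM, and no abu gene was then lower. With edgeR on recovered reads, 7 fipr genes fell and 1 rose in tph-1 and 3 fell in N2. Relative to the median of all genes, the edgeR median of the fipr genes was -0.69 in tph-1 and -1.59 in N2. Without N2 set 4, 4 pqn genes rose in N2.

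Near the end of L4 the early fipr genes returned in part of the animals. The median fipr share at 500 to 600 min was 0.0112% in tph-1 and 0.0673% in N2, against 0.0312% and 0.0377% at 400 to 500 min. That share includes fipr-21, with medians of 72.8 RPM in tph-1 and 244 RPM in N2 at 500 to 600 min. Against 400 to 500 min, 11 of 16 fipr genes were higher at 500 to 600 min in tph-1 and 13 of 16 in N2. Together 20 members rose and 11 fell in tph-1 in this step, where 1.87% and 2.99% of all genes tested did, and 27 rose and 10 fell in N2, against 4.69% and 3.76%. Of the abu genes 6 rose and 3 fell in each strain, and the 3 that fell were abu-12, abu-13 and abu-14. Without tph-1 set 3, which holds 11 of the 21 tph-1 animals after 500 min, 13 members rose and 7 fell in tph-1.

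For fipr-9 the lowest, median and highest values at 500 to 600 min were 0, 0.965 and 156 RPM in tph-1 and 0.249, 38.6 and 122 RPM in N2. At 400 to 500 min the highest were 5.30 RPM in tph-1 and 5.82 RPM in N2, and all medians were 0. The rise was 1.97 ± 0.36 in tph-1 and 4.02 ± 0.30 in N2 (log2, SE, limma adjusted p = 7.7e-06 and 8.5e-27). The gene abu-6 had 0, 3.54 and 120 RPM at 500 to 600 min in tph-1 and 0, 80.98 and 550 RPM in N2. It rose by 1.82 ± 0.39 in tph-1 and 4.08 ± 0.38 in N2 (SE).

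**Figure D4:**
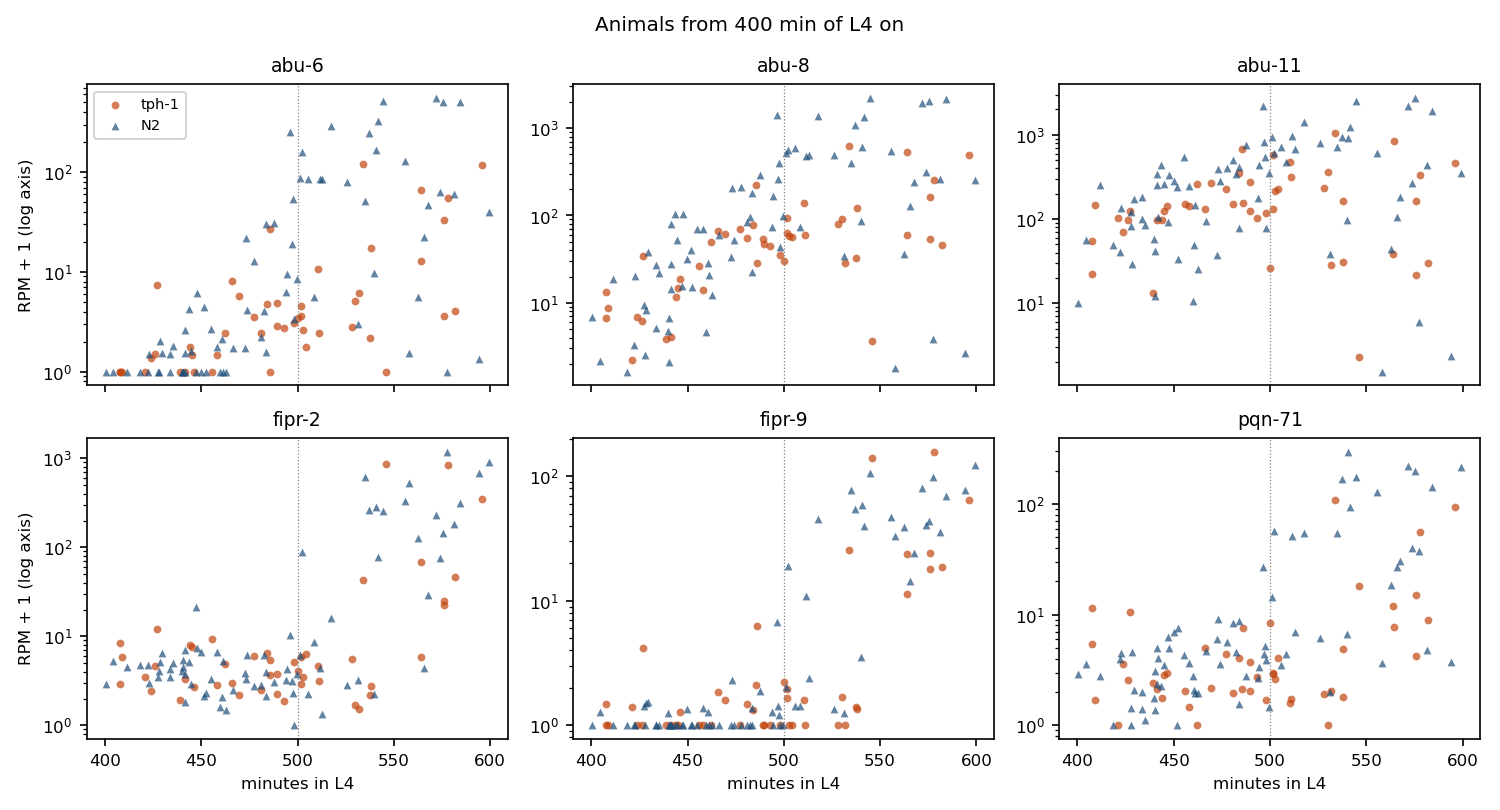
RPM + 1 on a log axis against minutes for animals collected from 400 min on, for abu-6, abu-8, abu-11, fipr-2, fipr-9 and pqn-71, with a dotted line at 500 min and tph-1 and N2 in separate colours. After 500 min fipr-9 was at 10 RPM or more in 9 of 21 tph-1 animals and 20 of 28 N2 animals, and the others lie below that level.

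Single animals showed the return as a mixture. The genes counted were picked after their values were seen. The 10 fipr genes are those called in the strain difference of this step, given below. The early gene fipr-1 was not called there (-1.08, limma adjusted p = 0.38) and is left out. The counts by strain are therefore no separate support for that difference. Between 500 and 600 min, all 10 of fipr-2 to fipr-11 were at 10 RPM or more in 4 of 21 tph-1 animals and 17 of 28 N2 animals, and none of the 10 in 12 and 8. At 550 to 600 min all 10 were on in 3 of 7 tph-1 and 11 of 13 N2 animals, and no animal had all of them off. The late abu genes abu-6, abu-7, abu-8, abu-10 and abu-15, counted as 5, were all on in 7 of 21 tph-1 and 21 of 28 N2 animals after 500 min. Counting abu as on with at least 3 of 5 genes and fipr with at least 5 of 10, both were on in 7 tph-1 and 16 N2 animals, abu alone in 10 and 8, fipr alone in 1 and 3, and neither in 3 and 1.

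The late abu genes were also high in a few animals at the very start. Among the 9 tph-1 animals below 50 min, those at 9.59, 12.2, 13.9 and 22.2 min had 233, 775, 783 and 439 RPM of abu-8, and the other 5 had at most 27.7 RPM. Among the 9 N2 animals, 1 at 34.2 min had 1143 RPM of abu-8 and the rest had at most 26.1 RPM. Between 200 and 400 min no animal exceeded 54.8 RPM in tph-1 or 15.98 RPM in N2. All 9 animals of each strain below 50 min had at least 5 of the 10 genes fipr-2 to fipr-11 on. At 50 to 100 min, 2 of 9 tph-1 animals and 1 of 14 N2 animals had at least 3 of the 5 late abu genes on.

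The rise in the last step was called different between the strains for 12 members. This test was over animals with a term for set, not over sets as units. Each set holds 1 strain, so the p-values measure only the spread between these animals, not between sets of a strain. The difference of the step, tph-1 minus N2, was added after the levels had been seen. It was lower for 10 fipr genes (fipr-2 to fipr-11), abu-6 and pqn-71, and higher for none, where 0.952% and 0.343% of all genes tested were (limma, adjusted p under 0.05 and at least 1 log2 unit). At an unadjusted p under 0.05 there were 23 members, where 10.3% of all genes passed. It was -2.05 ± 0.48 for fipr-9, -2.26 ± 0.56 for abu-6 and -1.998 ± 0.52 for pqn-71 (log2, SE, adjusted p = 0.0054, 0.010 and 0.015). The last-window medians of pqn-71 were 3.26 RPM (0 to 108) in tph-1 and 38.1 RPM (0.998 to 295) in N2.

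The count depended on the sets and on the time scale. Without tph-1 set 2 no member passed, without N2 set 8 there were 7, and with transcriptional age in place of minutes there were 0. In the last window the 9 tph-1 animals of set 2 had a median of 510 min, a median transcriptional age of 527 min and a fipr-9 median of 0.650 RPM, and the 11 of set 3 had 538 min, 529.9 min and 16.97 RPM. The 10 N2 animals of set 6 had 539 min, 535 min and 38.99 RPM, and the 14 of set 8 had 554 min, 519 min and 38.6 RPM. The other 2 pairs of N2 animals, of sets 7 and 3, had 522 and 578 min, ages of 456 and 563 min, and 38.6 and 38.4 RPM. The tph-1 animals of set 2 were the earliest of these sets in minutes but not in transcriptional age. Pharynx muscle and gland genes had a median difference of -0.58 in the same test, with 1 of 12 called lower and 6 of 12 at an unadjusted p under 0.05. The parts of collection time, transcriptional age and pharynx muscle RNA in the difference were not tested beyond these values.

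Over all of L4 no member passed the test of a difference in level between the strains. With minutes as a shared spline and the 12 sets as units, 0 of 74 members passed (limma), where 0.287% of all genes tested were higher and 0.147% lower in tph-1. At an unadjusted p under 0.05 there were 15 members, 3 higher and 12 lower, where 27.5% of all genes passed. The smallest p belonged to pqn-52, at -0.40 ± 0.11 (log2, SE, adjusted p = 0.092), with all 4 tph-1 sets below all 8 N2 sets. At 500 to 600 min pqn-52 had 91.3, 143.5 and 284 RPM in tph-1 and 117, 246 and 451 RPM in N2, and the groups overlapped. Next came pqn-92 at -0.51 ± 0.17 and pqn-87 at -0.36 ± 0.13 (SE, adjusted p = 0.10 and 0.12).

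Among abu genes the smallest p in that comparison was for abu-12, at 0.64 ± 0.25, and among fipr genes for fipr-5, at -0.44 ± 0.18 (SE, limma adjusted p = 0.13 for each). A test over animals without a set term called 7 members higher and 26 lower, where 20.1% and 43.6% of all genes passed. With edgeR over animals 11 members were higher and 22 lower, where 29.6% and 31.4% of all genes were. Each set holds 1 strain, so strain and set cannot be told apart in these tests. The late against early change differed between the strains for 0 members (limma, 5 at an unadjusted p under 0.05, as 16.3% of all genes), where 0.035% of all genes tested were higher and 0.742% lower. Of all members fipr-21 came nearest, with -1.78 ± 0.55 (log2, SE, adjusted p = 0.070). At 500 to 600 min it had 5.69, 72.8 and 886 RPM in tph-1 and 4.61, 244 and 1205 RPM in N2.

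The spread of animals around the fitted curve of their strain was widest in the abu genes. The SD of residuals around the spline had a median of 1.29 log2 units for abu genes in tph-1 and 1.67 in N2, 1.02 and 1.01 for fipr genes, and 0.70 and 0.60 for pqn genes. Over all tested genes it was 0.70 in tph-1 and 0.68 in N2. Among genes with a mean of at least 10 RPM it was 0.50 in both strains over all genes. For abu genes at that level it was 1.29 in tph-1 and 1.70 in N2, for fipr genes 1.13 in both, and for pqn genes 0.61 and 0.57. Misfit of the spline to a steep rise or fall also adds to this SD, and its part was not tested. The SD that counting reads alone gives was 0.36 for abu genes in tph-1 and 0.26 in N2, 0.33 and 0.26 for fipr genes, and 0.29 and 0.24 for pqn genes. The spread of the abu genes was therefore several times the counting error, which covers sampling of reads only, as these libraries have no molecular identifiers. With transcriptional age in place of minutes, the residual SD was smaller for 1 of 11 abu genes in tph-1 and 4 of 11 in N2, for 1 and 2 of 16 fipr genes, and for 22 and 18 of 47 pqn genes. Over all tested genes it was smaller for 8573 of 14293 in tph-1 and 7219 of 14293 in N2.

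**Figure D5:**
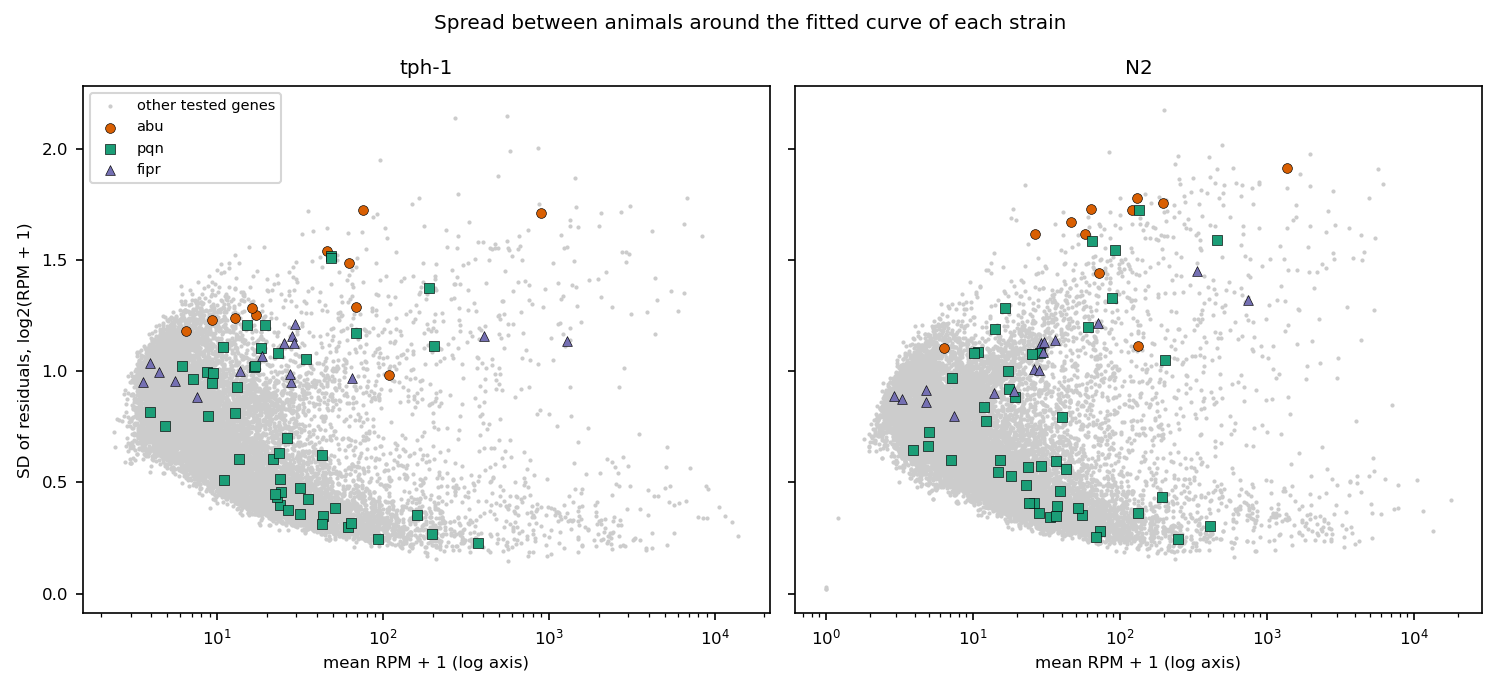
Residual SD between animals in log2 units against mean RPM + 1 on a log axis, tph-1 at the left and N2 at the right, each point 1 gene, with other tested genes in grey and the 3 families in colour. The abu points and the late pqn points lie above most grey points of the same level, and a group of pqn points lies among the lowest.

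The widest members at a mean of at least 10 RPM were abu-11 (1.73 in tph-1 and 1.76 in N2), abu-14 (1.71 and 1.92) and abu-8 (1.54 and 1.78). Among pqn genes pqn-54 (1.52 and 1.73) and pqn-74 (1.38 and 1.59) were as wide as abu genes, and among fipr genes fipr-2 had 1.16 and 1.45. The narrowest were pqn genes. The RNA-binding protein gene pqn-59 had 0.23 in tph-1 and 0.30 in N2, and pqn-87 had 0.27 and 0.24. In the 400 to 500 min window pqn-59 spanned 221 to 408 RPM in tph-1 and 178 to 464 RPM in N2, where abu-11 spanned 12.1 to 683 RPM in tph-1 and 9.04 to 2227 RPM in N2. The spread passed the test between the strains for no member (limma over the 12 sets, 0 called), where 0.021% of all genes tested were higher and 0% lower. At an unadjusted p under 0.05 there were 2 members, pqn-82 and pqn-42, where 7.82% of all genes passed.

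Other genes of the pharynx and its lining gave a frame for these times. Of 30 tested genes of the disordered pharyngeal cuticle proteins (idpa, idpb, idpc and idpp genes), 21 rose and 4 fell late against early in tph-1, where 10.1% and 23.6% of all genes tested did. In N2, 20 rose and 3 fell, against 11.4% and 8.19%. The 30 genes had median changes of 1.56 in tph-1 and 1.75 in N2. In their number idpc-1 had window medians of 27.8, 12.8, 16.6, 143.4, 559 and 329.5 RPM in tph-1 and 9.60, 4.64, 6.76, 149, 705 and 419 RPM in N2. Of 12 pharynx muscle and gland genes, 7 fell in tph-1 and 9 in N2, and of 7 pharynx transcription factors 5 fell in each, where 23.6% of all genes tested fell in tph-1 and 8.19% in N2. The median of myo-2 was 137.3 RPM in tph-1 and 427 RPM in N2 at 500 to 600 min, against 230 RPM and 251 RPM at 400 to 500 min. The part of pharynx muscle RNA in the changes of the families was not tested.

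Of 9 tested genes of chitin and the pharyngeal lining, 3 rose and 1 fell late against early in tph-1, where 10.1% and 23.6% of all genes tested did. In N2, 4 rose and 1 fell, against 11.4% and 8.19%. The chitin synthase gene chs-2 peaked at 300 to 400 min, with medians of 64.5 RPM in tph-1 and 92.8 RPM in N2. The gene pgp-14, a transporter of the pharynx, fell, with -2.17 ± 0.35 in tph-1 and -1.67 ± 0.47 in N2 (log2, SE, limma adjusted p = 2.3e-08 and 0.0013), and its median at 500 to 600 min was 12.99 RPM in tph-1 and 86.7 RPM in N2. Of 18 genes of the unfolded protein response and secretory folding, 11 fell in tph-1 and 3 in N2, and 0 rose in either (limma). Of all genes tested, 23.6% fell in tph-1 and 8.19% in N2. At an unadjusted p under 0.05, 18 changed in tph-1 and 16 in N2 in either direction, where 86.8% and 62.3% of all genes passed. The stress chaperone gene hsp-4 changed by 0.28 ± 0.13 in tph-1 and 0.51 ± 0.19 in N2 (SE), under the threshold of 1 log2 unit.

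Of the fip genes, relatives of the fipr genes, 3 of 7 were tested, and 1 fell in tph-1 and 2 in N2. The gene fip-5 had medians of 11.9 RPM at 400 to 500 min and 276 RPM below 100 min in tph-1, and of 9.55 and 188 RPM in N2. The gene fip-6 had its highest median at 300 to 400 min, with 196 RPM in tph-1 and 255 RPM in N2. For comparison with the body cuticle, 6 furrow collagens all peaked at 200 to 300 min, and 6 of them fell late against early in tph-1, while 2 fell and 1 rose in N2. Of 10 moulting genes, 1 rose and 5 fell in tph-1, and 2 rose and 3 fell in N2. Over all genes tested, 10.1% rose and 23.6% fell late against early in tph-1, and 11.4% rose and 8.19% fell in N2. These shares stand beside the fip and furrow collagen counts too.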

How the data were processed

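Single L4 animals were sequenced with SMART-seq2 and Nextera libraries from polyA RNA, per the labels' protocols. The authors deposited 1 table of RPM per strain, that is reads scaled to a fixed total, and reads were aligned with STAR 2.7.9a, per the submitters' processing notes. The sources used here do not give the genome build, annotation, counting tool or strand setting. All RPM values came out within 0.1 of a whole number of reads (100%), and edgeR 4.0.16 was run on those reads as an alternative, with no deposited count used.

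Tests were run with limma 3.58.1 (R 4.3.3) with a trend on log2(RPM + 1), with Benjamini-Hochberg adjustment over 14293 of 19364 genes at 5 RPM or more in at least 10% of animals. A call needed an adjusted p under 0.05 and, for changes, at least 1 log2 unit. Fold changes on this scale understate the change of low genes. Windows were early (under 200 min), middle, and late (from 400 min), or 100 min wide, with set as a covariate. The time course was a spline with 4 degrees of freedom. The level difference between strains was tested over 12 set intercepts, and spread as log2 of the SD of residuals per set. Strain differences of a change over time were tested over animals with set as a covariate. Set and minutes overlap in part. In N2, sets 6, 7 and 8 began at 380, 250 and 226 min, and so held no early animal. No other N2 set held more than 2 animals in a 100 min window from 400 min on. The N2 late against early changes therefore rest on few animals within a set and on comparisons through the middle window. No source says that the animals of a set are independent of each other, so p-values over animals measure only the spread between these animals. A transcriptional age came from a partial least squares model (5 components, 14219 genes, members left out, trained on N2 with each N2 set predicted from the other sets, scikit-learn 1.9.0, Python 3.11.15). Each test was tried on simulated data, whose base spread between animals was set below that of the abu and fipr genes. That trial therefore does not show how the tests perform on those genes. Positions come from Ensembl release 115, WBcel235, matched by symbol.

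Genes were named by rule: the 3 with the highest mean RPM per family, the 3 largest changes past the threshold in each direction, members passing the time course with a later peak, the 3 smallest p-values for strain, and the 3 widest and 3 narrowest spreads at a mean of at least 10 RPM. Other named genes, those of the other lists included, were chosen after their values were seen, and close protein pairs were not analysed here. The members, gene lists and tests were chosen with earlier results of these data known. Alternatives were the pseudocount, the filter, TMM scaling, the covariates, the window bounds, edgeR, and leaving out each set. No member sequence is printed.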

Additional observations from a re-analysis of the deposited data

Results flagged for a closer look

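The rise from 400 to 500 min to 500 to 600 min was smaller in tph-1 than in N2 for 12 members, by a test of the difference itself (limma, adjusted p between 0.0054 and 0.040), chosen after the levels were seen. The test was over animals and each set holds 1 strain, so these p-values do not measure the spread between sets. The difference on the log2 scale, tph-1 minus N2, was -2.26 for abu-6 and -1.998 for pqn-71. Among fipr genes it was -2.03 for fipr-2, -2.01 for fipr-3, -1.77 for fipr-4, -1.70 for fipr-5, -2.18 for fipr-6 and -1.86 for fipr-7. It was -1.61 for fipr-8, -2.05 for fipr-9, -1.77 for fipr-10 and -1.73 for fipr-11. In the same test 1 of 12 pharynx muscle and gland genes was lower, with a median of -0.58, and its part was not tested. None of these members was called with transcriptional age in place of minutes or without tph-1 set 2. Over all of L4, age minus minutes had a median of 55.2 min in tph-1 and -8.64 min in N2. In the windows of this step it was 15.2 and -11.2 min at 400 to 500 min, and -7.94 and -22.5 min at 500 to 600 min.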

How the results depend on the processing

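Counts over all members moved by over 1.5 times under these settings, and the cause was not tested. Late against early, 12 members fell in tph-1 and 8 in N2 with edgeR (23 and 19 in the main test). The median change of all genes with edgeR was -0.21 in tph-1 and -0.08 in N2, against -0.68 and -0.36 in the main test. In N2, 30 members fell with no set covariate, and 10 rose with windows at 150 and 450 min (16). Where no share of all genes is given for a setting, a move of the members cannot be told from a move of all genes. With transcriptional age, 15 members were lower in the middle in tph-1 (27). For strain, where 0 were called, 7 were higher and 26 lower over animals without a set term, 11 and 22 with edgeR over animals, and 6 and 12 with sets 1 to 4 of each strain (893 and 2893 of all genes). With the set number as a replicate block these were 7 higher and 13 lower (1330 and 3676). Same-numbered sets share only a number (correlations of their deviations 0.22, -0.09, 0.10 and -0.02). Leaving out 1 set gave 0 to 1 higher and 0 to 2 lower. The strain difference reversed with transcriptional age for fipr-5 (0.63) and fipr-7 (0.76).

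For the strain difference of the late against early change, members lower were 1 with a pseudocount of 5, 2 with no filter, 1 where a mean of 10 RPM was required, and 2 with windows at 150 and 450 min. For the last step it was 0 lower with transcriptional age, and 0 to 14 lower and 0 to 1 higher when 1 set was left out. For spread, 1 member was higher with no filter. The median residual SD was 0.83, 1.73 and 1.61 for abu genes in tph-1 with a pseudocount of 5, of 0.25 and with transcriptional age. For pqn genes in tph-1 it was 0.50 with a pseudocount of 5, 0.61 with the mean filter and 0.60 with TMM, and in N2 it was 0.46 with a pseudocount of 5. For fipr genes it was 0.70 and 1.47 in tph-1 and 0.71 and 1.38 in N2 with pseudocounts of 5 and 0.25, and 1.51 in N2 with transcriptional age. Of the recomputed values over groups of members, 489 stayed within these bounds and 37 did not. Depth limits members near 1 read.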
